A study of Mus musculus with 5 samples.

Results

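Gene expression of skeletal muscle cells of the Prx1 lineage was compared between the d0 (uninjured) library and the d3 post-fracture library. Cells were kept when they had 350 to 8000 detected genes, under 20% of their UMIs (unique molecular identifiers, each counting 1 captured transcript) on mitochondrially encoded genes and at least 1000 UMIs. This left 4632 of 5653 d0 cells and 5589 of 6229 d3 cells, together 10221 of the 29831 cells retained by the same limits in the 5 libraries of the series. The study asked how muscle mesenchymal progenitors take part in bone repair, and the other 3 libraries are labelled d5 post-fracture and polytrauma at d3 and d5. Both libraries came from Prx1Cre;mTmG mice on a C57Bl/6 background, aged 10 to 14 weeks by the study's methods, and 2 animals were pooled in each. In these mice Cre under a Prx1 (Prrx1) limb enhancer removes a membrane Tomato cassette and turns on membrane GFP, so GFP marks every descendant of a cell that ever had Cre, whatever it is now. The d0 mice had no injury, and the d3 mice had a tibial fracture without fixation. In both, the muscles around the tibia were digested, with periosteum and bone marrow left out, and GFP+ cells were sorted before droplet capture and sequencing of transcript 3' ends.

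Skeletal muscle holds mesenchymal progenitors between its fibres, often called fibro-adipogenic progenitors (FAP/MP), which express Pdgfra, Ly6a (Sca1) and Cd34 and make much of the interstitial matrix. In intact muscle they are largely quiescent. After injury they enter the cell cycle, recruit leukocytes with chemokines and lay down a provisional matrix. The Prx1 lineage in limb muscle also takes in tenocytes, the collagen-making cells of tendon, and pericytes, the contractile cells that wrap small vessels.

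With 1 library per condition there were no replicates, so no difference could be tested against the spread between animals, and no p-value is given. Every interval below is an exact 95% interval that covers counting error only. Injury, animal, sort and library preparation cannot be told apart. The libraries differed in depth: the median cell had 3640 UMIs and 1374 genes at d0 against 17963 UMIs and 3387 genes at d3, and mean UMIs per cell were 4.75 times as many at d3. The reporter transcripts matched the sort: EGFP was detected in 97.3% of d0 and 99.2% of d3 cells while tdTomato had 0 UMIs at d0 and 1 at d3. Of the retained barcodes, 92 (1.99%) at d0 and 136 (2.43%) at d3 also occurred in another library of the series, and results without them are among the alternatives given at the end.

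UMIs were summed over the cells of each library, and 9130 genes with a mean of at least 5 CPM (UMIs per 1000000 UMIs of the library) over both libraries were compared. A ratio is given as log2 of d3 over d0 in CPM unless stated otherwise. CPM forces each library to the same total, so a second scale, the median of ratios, set the median log2 ratio of all genes detected in both libraries to 0. It lies 0.65 above CPM for every gene, and over the compared genes the median log2 ratio was -0.32 on CPM and 0.33 on the median of ratios. A gene was called higher or lower only when it was past 2-fold in that direction on both scales.

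By this rule 1052 genes (11.5% of those compared) were higher and 1328 genes (14.5%) were lower at d3 post-fracture. Counts of called members in every gene list below are to be read against these shares. The scaling decides part of these counts: CPM alone gave 1052 higher and 2504 lower genes (27.4%), and the median of ratios alone gave 2415 higher (26.5%) and 1328 lower. Past 16-fold in CPM there were 75 higher and 257 lower genes. The size of the smaller of a gene's log2 ratios decided the call. It was 1.0012 for Adrm1, a proteasome receptor just inside the limit for higher genes, and 0.99985 for Rpl30 just outside it, and 1.0006 for Medag and 0.99938 for Irgq on each side of the limit for lower genes. Without any scaling, in UMIs per cell, 7192 genes (78.8%) were at least 2-fold higher at d3 and 394 (4.32%) at least 2-fold lower. Of the 1328 genes called lower, 536 had more UMIs per cell at d3 than at d0. Here lower therefore means a smaller share of a larger transcript count. In pooled cells of a library, fewer cells that express a gene and fewer transcripts in each cell cannot be told apart from the sum alone.

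**Figure D1:**
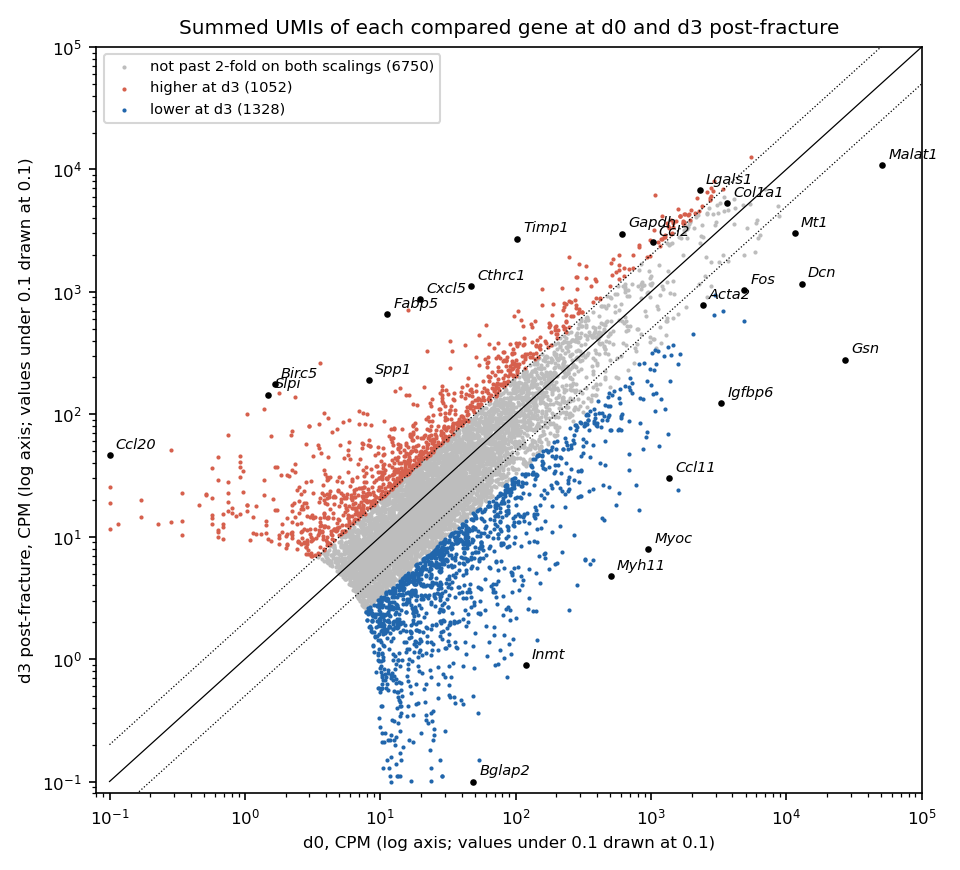
Summed UMIs of the 9130 compared genes as CPM at d0 (x axis) and at d3 post-fracture (y axis), both on log axes, with 1 point per gene. The solid line marks equal CPM and the dotted lines 2-fold. Red points (1052) were called higher and blue points (1328) lower on both scales, and black points carry a gene name. Ccl20, with 0 UMIs at d0, lies at the left edge, and Gsn (26999 to 279 CPM) lies furthest under the lines among the most abundant genes.

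Among genes with a mean of at least 20 CPM, the largest rise was in Ccl20. Ccl20 (ENSMUSG00000026166, chromosome 1, 83116766 to 83119167, plus strand, GRCm38), a chemokine for CCR6-bearing lymphocytes and dendritic cells, had 0 UMIs in the d0 library and 4640 at d3. Set against a floor of 3 counts in the d0 library it was 269.9-fold higher (log2 ratio 8.08), while the exact interval of its log2 ratio starts lower, at 7.78. It was carried by 3.80% of d3 cells when each cell was thinned to 2000 UMIs, and by 0% of the pericyte-marked d3 cells, of which there were only 111. Chl1, a neural-type adhesion molecule, had 0.287 CPM at d0 and 51.3 CPM at d3 (log2 ratio 7.48, interval 6.26 to 9.11), resting on 5 UMIs at d0. Slpi, a secreted inhibitor of neutrophil elastase, had 1.49 and 145 CPM (6.60). Il1rl1, which encodes the IL-33 receptor ST2, had 3.61 and 261 CPM (6.18), and the thinned share of cells with it was 0.386% at d0 and 30.1% at d3. Fabp5, a fatty acid-binding protein, had 11.3 and 659 CPM (5.87), in 2.03% and 49.0% of cells. Cxcl5, a neutrophil chemokine, had 19.8 and 877 CPM (5.47), in 1.11% and 50.02% of cells.

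Free RNA in droplets can add to such shares, and its part was not tested. In pericyte-marked cells, defined below, the d3 share was 4.50% for Il1rl1, 24.3% for Fabp5 and 18.0% for Cxcl5. All 3 lay under the shares in the whole d3 library. Both sets of cells were thinned to the same 2000 UMIs, from medians of 4997 UMIs in the pericyte-marked and 17963 UMIs in all retained d3 cells. The other 9 of the 15 largest rises were Birc5, Cdk1, Tk1, Pclaf, Cdca3, Cdca8, Ube2c, Cenpm and Cdkn3, all genes of DNA synthesis or mitosis, with log2 ratios between 5.48 and 6.72.

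The falls below are also ranked among genes with a mean of at least 20 CPM. Gsn (ENSMUSG00000026879, chromosome 2, 35256380 to 35307892, plus strand), which encodes the actin-severing protein gelsolin, went from 26999 CPM at d0 to 279 CPM at d3 (log2 ratio -6.59, interval -6.61 to -6.58), 96.7-fold lower. Myoc, encoding the secreted protein myocilin, had 949.9 and 7.94 CPM (-6.90), in 50.1% of thinned d0 cells and 2.37% of d3 cells. Inmt, an indolethylamine methyltransferase, had 119 and 0.890 CPM (-7.06). Abca8a, a lipid transporter, had 249.9 and 2.54 CPM (-6.62). Myh11, the smooth muscle myosin heavy chain, had 504 and 4.78 CPM (-6.72). It is 1 of the pericyte markers used below, and within pericyte-marked cells its log2 ratio was -2.40. Bglap2, an osteocalcin gene with the near-identical neighbour Bglap, fell furthest, with 48.5 and 0.0700 CPM (-9.44), and only 0.952% of d0 cells carried it. Mrgprg, Olfml2a, Nrarp, Itga8, Hmcn2, Synpo2, Efhd1 and Cilp2 were also among the 15 largest falls above that mean, with log2 ratios between -8.48 and -6.30. At d0 Olfml2a, Nrarp, Itga8 and Synpo2 were detected more often in pericyte-marked cells than in cells neither dividing nor marked as another type. For Synpo2 the shares were 43.2% and 1.10%. For Cilp2 they were 1.48% and 0.772%, both under its share of 5.74% in all thinned d0 cells. Mrgprg, Hmcn2 and Efhd1 were detected less often in pericyte-marked cells.

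**Figure D2:**
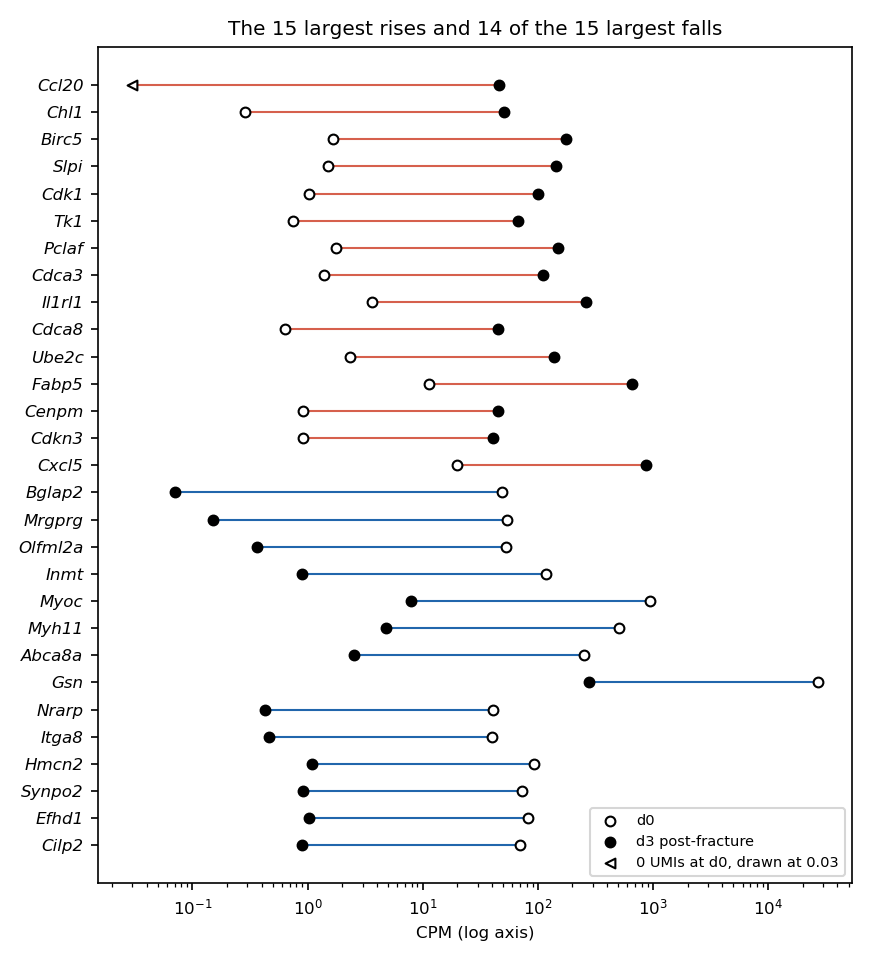
CPM (log axis) of the 15 genes with the largest rise and 14 of the 15 with the largest fall among called genes with a mean of at least 20 CPM, with open circles for d0 and filled circles for d3 post-fracture. Ccl20 had 0 UMIs at d0 and is drawn as a triangle at 0.03. Gsn starts from the highest d0 level of the genes drawn, and Cxcl5 reaches the highest d3 level of those that rose.

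By absolute change, with ribosomal protein and mitochondrially encoded genes left out, the largest gains were in Lgals1 (2296 to 6791 CPM), Timp1 (102 to 2717 CPM), Gapdh (608 to 2984 CPM), Vim (1879 to 4230.3 CPM) and Actg1 (1597 to 4769 CPM), all called higher. Lgals1 encodes galectin-1, Vim the intermediate filament vimentin and Timp1 (ENSMUSG00000001131, chromosome X, 20870166 to 20874735, plus strand) the tissue inhibitor of metalloproteinases. Timp1 was 26.6-fold higher (log2 ratio 4.73, interval 4.67 to 4.80) and its thinned share was 10.3% at d0 and 93.1% at d3. The d3 share in pericyte-marked cells was 53.2%. Mif (250.1 to 1913 CPM), Serf2 (1260.4 to 2816 CPM) and Ccl2 (1027 to 2561 CPM) were also called higher, while Eef1a1 (3241 to 5274 CPM) and Col1a1 (3669.6 to 5316 CPM) were not. The largest losses, Gsn aside, were in the nuclear RNA Malat1 (51075 to 10833 CPM) and in Dcn (12960 to 1169 CPM), Mt1 (11532 to 3032 CPM), Hspa1a (4830.5 to 575 CPM), Fos (4885 to 1035 CPM) and Igfbp6 (3318 to 123 CPM), all called lower. In UMIs per cell Malat1 (192 at d0 and 194 at d3), Fos (18.4 and 18.5) and Mt1 (43.4 and 54.2) were not lower. Gsn (102 and 5.00), Dcn (48.8 and 20.9), Hspa1a (18.2 and 10.3) and Igfbp6 (12.5 and 2.20) were lower per cell too. Crip1 (5909 to 2122 CPM), Ubb (6408 to 2910.1 CPM) and Mt2 (6158 to 2734 CPM) were below d0 on both scales but not past 2-fold on both.

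Cell cycle genes were higher as a group. Of 25 compared genes of G2 and mitosis, 25 were called higher and 0 lower (median log2 ratio 4.47 on CPM and 5.12 on the median of ratios), against 11.5% higher among all compared genes. Cdk1 (ENSMUSG00000019942, chromosome 10, 69335146 to 69352938, minus strand), the kinase that drives entry into mitosis, had 1.03 CPM at d0 and 99.9 at d3. Birc5, encoding survivin, had 1.66 and 175 CPM, and Aurkb, the kinase that works with it at the centromere, had 0.172 and 20.1 CPM. Of 28 compared genes of DNA replication, 23 were called higher and 0 lower (median log2 ratio 2.55 on CPM and 3.19 on the median of ratios). Tk1, thymidine kinase, had 0.746 and 67.4 CPM, and Mcm5, a subunit of the replicative helicase, had 1.66 and 37.2 CPM. Slbp, the histone mRNA-binding protein, was not called at 146 and 84.6 CPM.

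Cells were scored as dividing when at least 2 of 30 G2 and mitosis genes had a UMI among 2000 drawn from the cell, so that both libraries were read at the same depth. By this score 0.257% (10 of 3888 cells, interval 0.123 to 0.472%) were dividing at d0 and 37.1% (1991 of 5364 cells, interval 35.8 to 38.4%) at d3. With at least 3 genes the shares were 0.180% and 25.2%. At d3, 11.8% of cells had 5 or more of the genes. Cells described as not dividing are those under the limit of 2 genes at this depth, and may include dividing cells. Dividing d3 cells had a median of 22763 UMIs against 17067 in d3 cells that were neither dividing nor marked as another cell type. Of the inhibitors that hold cells out of the cycle, Cdkn1a, Cdkn1b and Cdkn1c were called lower, and Cdkn2c and Cdkn2d were not called. Cdkn1a, encoding p21, had 829 CPM at d0 and 84.4 at d3, and was detected in 62.4% and 14.1% of thinned cells. Cdkn1c, encoding p57, had 49.5 and 6.75 CPM. Among the G1 cyclins, Ccne2 was called higher (2.64 to 9.84 CPM), Ccnd2 lower (345 to 89.6 CPM), and Ccnd1 and Ccnd3 were not called.

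**Figure D3:**
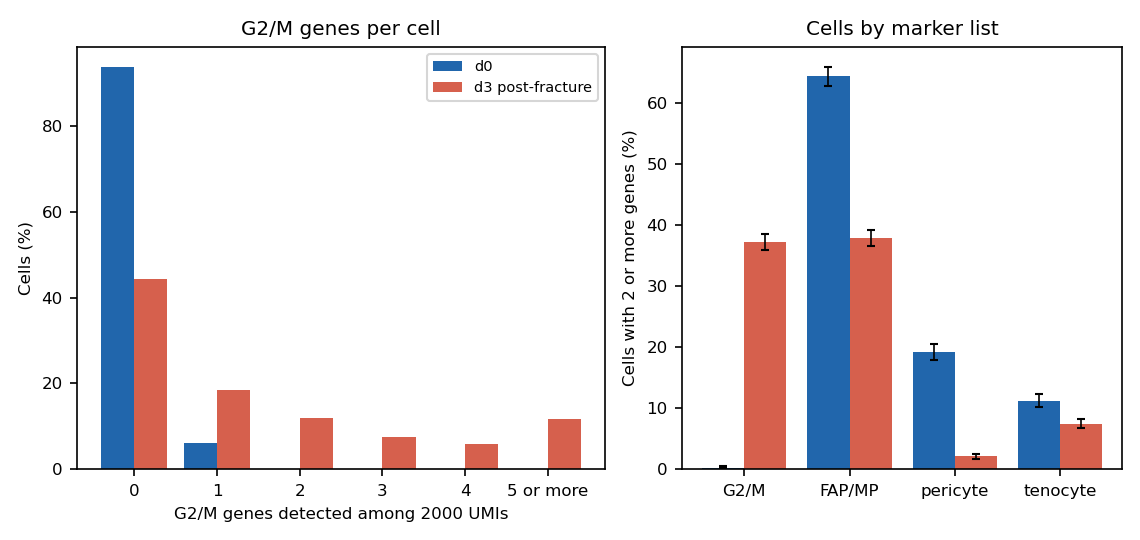
Left, share of cells (%) by the number of G2 and mitosis genes detected among 2000 UMIs drawn per cell, for d0 (3888 cells) and d3 post-fracture (5364 cells), with cells at 5 or more in the last pair of bars. Right, share of cells (%) with at least 2 genes of the G2 and mitosis, FAP/MP, pericyte and tenocyte lists, with exact 95% counting intervals. The dividing share is 0.257% at d0 and 37.1% at d3, and the pericyte-marked share is 19.2% and 2.07%.

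The bases before the start of 2 of these genes are shown because members of this list that moved together are known to share 2 short elements, the CCAAT box and the cell cycle homology region (CHR). Capitals mark TTTGAA, the CHR letters, and CCAAT, which in Cdk1 lies on the opposite strand and so reads ATTGG. The sequences are those of RefSeq on GRCm38.p6, written 5' to 3' on the gene's strand and ending where an annotated transcript begins.
Cdk1, chr10:69352939-69353112, minus strand: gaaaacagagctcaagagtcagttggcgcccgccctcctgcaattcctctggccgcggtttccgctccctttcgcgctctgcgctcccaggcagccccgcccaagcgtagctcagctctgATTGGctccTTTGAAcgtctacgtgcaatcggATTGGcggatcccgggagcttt
Ccnb2, chr9:70421555-70421754, minus strand: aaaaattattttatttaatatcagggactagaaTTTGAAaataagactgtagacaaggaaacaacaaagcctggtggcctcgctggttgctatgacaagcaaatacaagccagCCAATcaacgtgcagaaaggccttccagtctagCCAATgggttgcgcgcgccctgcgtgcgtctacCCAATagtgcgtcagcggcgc
Over windows of 200 bases before a gene's start, 17 of the 21 members with a window held CCAAT on either strand (81.0%), against 36.5% of the 7173 compared genes with a window and 29.3% of all 32851 windows. TTTGAA was found in 8 of them (38.1%), against 8.89% of compared genes and 12.5% of all windows. These are counts of letters and not of bound sites. Ccnb2, encoding cyclin B2, had 3.84 CPM at d0 and 102 at d3.

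Genes of protein synthesis took a larger share of the d3 library. Of 77 ribosomal protein genes, 50 were called higher and 0 lower (median log2 ratio 1.09 on CPM and 1.73 on the median of ratios), and all 77 were above their d0 CPM. Their summed level was 146707 CPM at d0 and 308194 CPM at d3. Rps2 (1069 to 6139 CPM) and Rpsa (1198 to 4151 CPM) stood highest in ratio. Of 19 translation factors, 7 were called higher and 0 lower (median log2 ratio 0.86 on CPM and 1.51 on the median of ratios). Eif4ebp1, a repressor of cap-dependent initiation, had 54.1 and 252 CPM, and the elongation factor Eef1b2 had 333 and 1288 CPM. Of 24 ribosome assembly genes, 6 were higher, among them Gar1 (15.6 to 56.2 CPM) and Npm1 (509.5 to 1718 CPM), which encodes nucleophosmin. Nop58, a core protein of box C/D small nucleolar RNPs, was the only one called lower (382 to 109 CPM). Of 20 aminoacyl-tRNA synthetases, 3 were called higher, Vars (10.2 to 41.6 CPM), Gars (20.8 to 63.7 CPM) and Rars (23 to 48.2 CPM). Of 29 proteasome subunits 5 were, led by Psma7 (237 to 566 CPM) and Psmb4 (152 to 343 CPM). Both counts are near the 11.5% of all compared genes called higher. The median log2 CPM ratio was 0.40 for the synthetases and 0.66 for the proteasome, against -0.32 for all compared genes.

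Genes that make nucleotides and 1-carbon units were called higher for 8 of 18 members and lower for 0 (median log2 ratio 0.78 on CPM and 1.43 on the median of ratios). They included Mthfd1l (1.89 to 10.8 CPM), of mitochondrial folate metabolism, and Psat1 (12.2 to 59.1 CPM), of serine synthesis. Impdh2, the guanine nucleotide enzyme, was not called, and its direction differed between scales (log2 ratio -0.36 on CPM and 0.29 on the median of ratios).

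Glycolysis genes were called higher for 10 of 19 members and lower for 1 (median log2 ratio 1.14 on CPM and 1.78 on the median of ratios). The lactate exporter Slc16a3 had 10.7 CPM at d0 and 87.5 at d3, the enolase gene Eno1 had 157 and 1056 CPM, and Gapdh had 608 and 2984 CPM. Ldhb, the lactate dehydrogenase subunit that favours pyruvate formation, was the lower member (44.7 to 9.27 CPM). Genes known to respond to low oxygen were mixed: of 15, 6 were higher, such as Mif (250.1 to 1913 CPM) and Higd1a (133 to 516 CPM), and Adm, encoding the vasodilator adrenomedullin, was lower (203 to 27.6 CPM). In the citrate cycle 2 of 19 were called, Idh2 (40.3 to 168 CPM) and Mdh2 (199 to 457 CPM), both higher.

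Few nuclear-encoded subunits were called, and their medians lay above that of all compared genes (-0.32), with log2 CPM ratios of 0.29 for complex I (1 of 36 higher, Ndufa4), 0.15 for complex II (0 of 4 called), 0.32 for complex III (2 of 9 higher, Cyc1 and Uqcrfs1), 0.39 for complex IV and 0.42 for complex V (2 of 16 higher, Atp5g1 and Atp5g2). Within complex IV, Cox5a was the member called higher (63.2 to 374 CPM), and the lower members were the tissue-restricted forms Cox4i2 (71.0 to 3.52 CPM) and Cox7a1 (14.1 to 1.66 CPM). All 13 mitochondrially encoded genes were below d0 on both scales (median log2 ratio -1.39 on CPM and -0.75 on the median of ratios), and 4 passed 2-fold on both, mt-Nd2, mt-Nd3, mt-Nd4 and mt-Nd6. The median cell had 3.13% of its UMIs on these genes at d0 and 1.95% at d3, and a limit on this share was part of the choice of cells.

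Many genes of the secretory pathway were higher. Of 25 chaperones and translocation factors of the endoplasmic reticulum (ER), 16 were called higher and 0 lower (median log2 ratio 1.31 on CPM and 1.95 on the median of ratios). The translocon subunit Sec61b had 333 CPM at d0 and 1631 at d3, Sec61g had 813 and 2340.2 CPM, and the ER-stress chaperone Creld2 had 22.5 and 94.99 CPM. Hspa5, encoding the main ER chaperone BiP, was not called: it had 1158 and 951 CPM, and its direction differed between scales (log2 ratio -0.28 on CPM and 0.36 on the median of ratios). Calr, calreticulin, had 584 and 1514 CPM.

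Many ER chaperone genes carry an ER stress response element (ERSE), CCAAT and CCACG set 9 bases apart. The stretches before Creld2 and Calr are shown for it, with the matching letters in capitals. In both genes the element lies on the opposite strand and so reads CGTGG, 9 bases and ATTGG.
Creld2, chr15:88819446-88819645, plus strand: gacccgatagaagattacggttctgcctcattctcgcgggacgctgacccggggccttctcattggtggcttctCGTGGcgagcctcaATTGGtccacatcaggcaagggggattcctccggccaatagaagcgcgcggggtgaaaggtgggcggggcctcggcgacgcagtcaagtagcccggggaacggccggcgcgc
Calr, chr8:84846935-84847131, minus strand: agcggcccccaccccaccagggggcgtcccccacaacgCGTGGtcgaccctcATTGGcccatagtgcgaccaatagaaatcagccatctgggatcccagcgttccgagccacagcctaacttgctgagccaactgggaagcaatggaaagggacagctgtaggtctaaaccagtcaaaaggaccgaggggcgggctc
The full element, CCAAT, 9 free bases and CCACG on either strand, was present in 7 of the 20 members with a window (35%), which were Hspa5, Hsp90b1, Calr, Canx, Pdia6, Dnajc3 and Creld2, against 0.139% of compared genes and 0.103% of all 32851 windows. Among these 7, 3 were called higher (Calr, Pdia6 and Creld2) and the other 4 were not called.

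Few collagen genes were called. Of 14 fibril-forming and fibril-associated collagens, 1 was called higher, Col12a1 (102 to 256 CPM), and 0 lower (median log2 ratio 0.27 on CPM and 0.92 on the median of ratios). Col1a1, encoding the main chain of type I collagen, had 3669.6 CPM at d0 and 5316 at d3 (log2 ratio 0.53 on CPM and 1.18 on the median of ratios). In cells that were neither dividing nor marked as another type it had a log2 ratio of 1.37 on CPM and 1.91 on the median of ratios, past 2-fold on both. Of 21 genes of collagen processing and cross-linking, 8 were called higher. Lox, the lysyl oxidase that cross-links collagen, had 109 and 588 CPM, and P4ha3, a prolyl hydroxylase subunit, had 5.39 and 44.1 CPM. Serpinh1, the collagen chaperone, was not called (1747 to 3199.9 CPM), and the transglutaminase Tgm2 was the lower member (89.2 to 8.44 CPM).

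Matricellular proteins, which tune cell behaviour in healing tissue, split in both directions, with 8 of 18 higher and 3 lower. Cthrc1, a secreted protein of wound fibroblasts, had 47.1 CPM at d0 and 1112 at d3 (log2 ratio 4.56, interval 4.46 to 4.66), and its thinned share was 4.01% and 77.5%, with 19.8% in pericyte-marked d3 cells. Spp1, osteopontin, had 8.20 and 189 CPM. The lower members were Tnxb, tenascin-X, with 325 and 6.46 CPM, Sparcl1 with 817 and 16.4 CPM, and Nov with 115 and 14.9 CPM. Sparc, the most counted member, had 6921 and 6909 CPM (log2 ratio 0.64 on the median of ratios), and was not called. Postn and Tnc, encoding periostin and tenascin-C, were higher too: Postn had 219 and 1069 CPM and Tnc 54.0 and 445 CPM.

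Basement membrane genes were lower as a group. Of 16 compared, 0 were called higher and 13 lower (median log2 ratio -2.87 on CPM and -2.23 on the median of ratios), against 14.5% lower among all compared genes. Lama5, a laminin chain, had 29.9 CPM at d0 and 0.260 at d3, Col15a1 had 326 and 6.55 CPM, and Smoc2 had 828 and 136 CPM. At d0 Lama5 was detected in 23.6% of pericyte-marked cells and 0.441% of cells neither dividing nor marked as another type. Among cells with no mark of another type and not dividing, the median of the same 16 genes was -2.97. Small leucine-rich proteoglycans, which bind collagen fibrils, were lower for 8 of 10 members, and neither of the others was called. Dcn, decorin, had 12960 and 1169 CPM, Lum, lumican, 1416 and 306 CPM, Fmod, fibromodulin, 1260.3 and 110.1 CPM, and Kera, keratocan, 196 and 6.00 CPM. Ogn, Prelp, Omd and Podn had log2 ratios between -3.79 and -1.88. Bgn, biglycan, was not called at 1426 and 2485 CPM, nor was Aspn, asporin, at 449 and 361 CPM, whose direction differed between scales. Fmod and Kera are tenocyte markers, and tenocyte-marked cells were 11.2% of d0 and 7.42% of d3 cells. In cells neither dividing nor marked as another type, Fmod had a log2 ratio of -0.82 on CPM and -0.28 on the median of ratios, under 2-fold. Fmod was itself used to leave tenocyte-marked cells out, so this value depends on that choice. Within tenocyte-marked cells Fmod had 9488 and 1042 CPM (log2 ratio -3.19) and Kera 1521 and 86.9 CPM (-4.13).

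Of 17 compared elastic fibre genes, 4 were called higher and 5 lower, against 11.5% and 14.5% of all compared genes. The higher ones included Ltbp2 (4.13 to 92.9 CPM) and Fbn2 (4.42 to 71.8 CPM), a fibrillin of developing tissue, and the lower ones Ltbp4 (453 to 13.7 CPM) and Eln, elastin (317 to 54.6 CPM). Mfap5 was not called (1288 to 583 CPM). Genes of hyaluronan and its binding proteins were called higher for 3 of 10, namely Has2 (34.7 to 84.0 CPM), Vcan (80.7 to 196 CPM) and Hyal2 (4.87 to 14.0 CPM), and lower for 2, Itih5 (371 to 6.404 CPM) and Has1 (809 to 256 CPM). Tnfaip6 was not called (1462 to 1229.8 CPM). Among proteases and their inhibitors, 5 of 20 were higher and 6 lower. The TIMP family, whose members block matrix metalloproteinases, was divided: Timp1 was higher, while Timp2 (596 to 93.3 CPM), Timp3 (568 to 74.4 CPM) and Timp4 (11.99 to 0.0901 CPM) were lower.

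**Figure D4:**
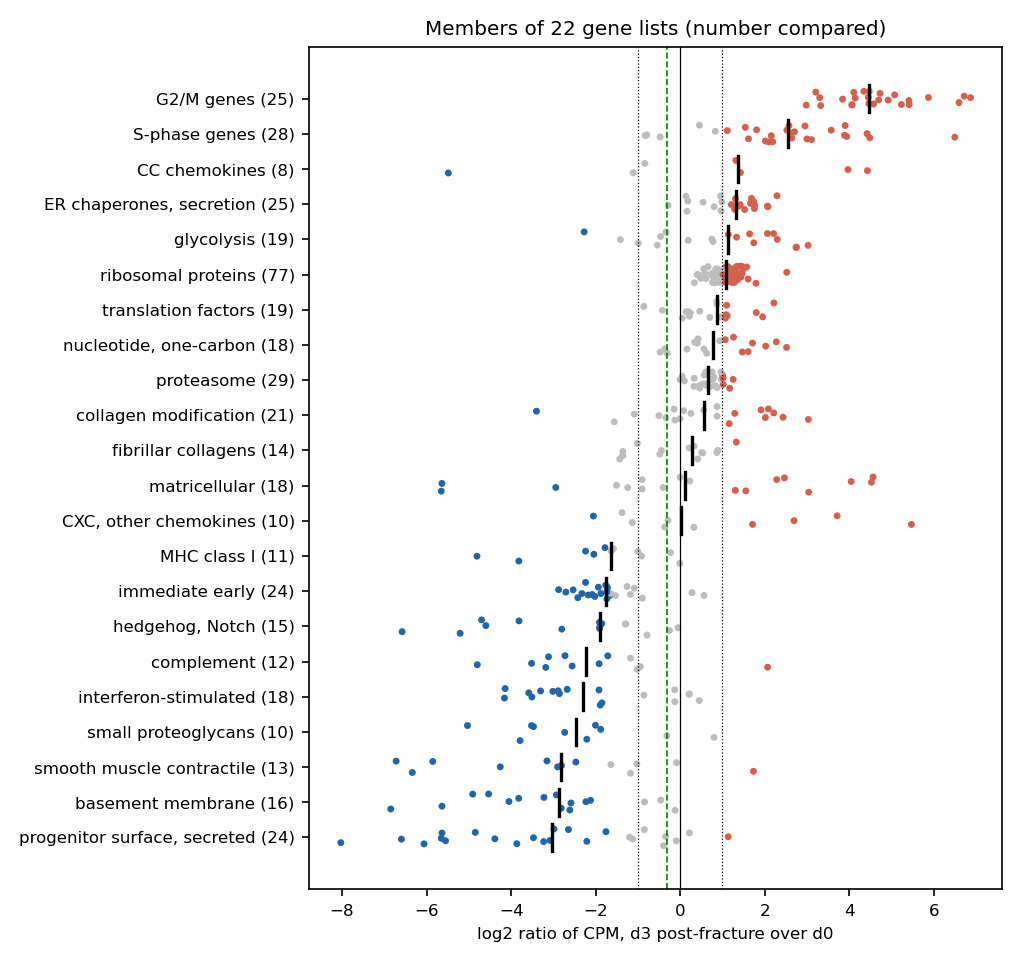
Log2 ratio of CPM (d3 post-fracture over d0, x axis) of each compared member of 22 gene lists, 1 point per gene, red where called higher, blue where called lower and grey where not called. Black bars are list medians, dotted lines mark 2-fold, and the dashed green line marks the median of all 9130 compared genes (-0.32). Medians run from 4.47 for G2 and mitosis genes to -3.03 for the progenitor surface and secreted genes, and Ccl20, with 0 UMIs at d0, has no point.

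Chemokines changed unevenly. Of 8 compared CC chemokines, 5 were called higher and 1 lower. Ccl2, the main monocyte attractant, had 1027 CPM at d0 and 2561 at d3, in 28.6% and 78.4% of thinned cells, with 12.2% and 53.2% in pericyte-marked cells. Ccl7, its neighbour with the same receptor, had 741 and 1989 CPM. Ccl5 had 0.803 and 17.3 CPM and Ccl9 2.24 and 35.0 CPM, and with Ccl20 they made up the higher members. Ccl11, eotaxin, went the other way, from 1351 to 30.2 CPM (log2 ratio -5.49, interval -5.54 to -5.43), and from 59.2% to 5.03% of cells. In pericyte-marked cells it had 220.3 and 400.5 CPM (log2 ratio 0.86), in 15.6% and 19.8% of them. Ccl8 (47.9 to 26.8 CPM) and Ccl19 (10.2 to 4.69 CPM) were not called. Of 10 compared CXC and other chemokines, 4 were higher: Cxcl5, Cxcl3 (3.67 to 48.1 CPM) and Cxcl2 (97.3 to 629.6 CPM), which act on neutrophils, and Cx3cl1 (2.87 to 9.40 CPM). Cxcl9, an interferon-gamma target, was lower (10.95 to 2.64 CPM). Cxcl1, already high at d0, was not called (2998 to 3748 CPM), nor were Cxcl10 (135 to 110.2 CPM), Cxcl12 (371 to 288 CPM), Cxcl14 (254 to 97.8 CPM) and Cxcl16 (42.3 to 19.3 CPM).

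Of 16 cytokines and cytokine receptors, 4 were higher and 5 lower, against 11.5% and 14.5% of all compared genes. The higher ones were Il1rl1 and 3 cytokines of the gp130 family, Il11 (7.40 to 103.3 CPM), Lif (8.43 to 54.9 CPM) and Clcf1 (4.93 to 30.8 CPM). Il6, which signals through the same receptor subunit, was lower (478 to 138 CPM), as were Tslp (38.1 to 3.44 CPM), the scavenging receptor Ackr3 (296 to 27.8 CPM), Lifr (31.3 to 6.46 CPM) and Kitl (55.7 to 8.80 CPM). Il33, the ligand of the receptor encoded by Il1rl1, was not called at 86.4 and 82.6 CPM. NF-kB feedback and acute phase genes were called higher for 5 and lower for 3 of 16. Saa3 (2.98 to 80.2 CPM) and Hp, haptoglobin (3.21 to 45.7 CPM), were higher, and Saa1 (28.0 to 1.96 CPM) and Icam1 (216 to 33.4 CPM) were lower. Nfkbia, the inhibitor of NF-kB, was not called (928 to 985 CPM).

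Interferon-stimulated genes were lower at d3. Of 18 compared, 0 were called higher and 12 lower (median log2 ratio -2.30 on CPM and -1.65 on the median of ratios), against 14.5% lower among all compared genes. Stat2, a part of the complex that carries type I interferon signals, had 49.6 CPM at d0 and 2.78 at d3, and Irf1 had 214 and 12.2 CPM. Ifitm3, an antiviral membrane protein, was not called (1733 to 2002 CPM). Of 11 MHC class I genes, 5 were lower and 0 higher (median log2 ratio -1.63 on CPM and -0.98 on the median of ratios), among them H2-Q4 (112 to 3.99 CPM) and H2-T23 (33.8 to 2.40 CPM), whose reads can be shared with near-identical class I genes. B2m, encoding the shared light chain, was below d0 on both scales without passing 2-fold on both (1082 to 349.6 CPM). Of 12 complement genes, 8 were lower, including Cd55 (140.5 to 5.04 CPM), Clu (72.2 to 6.31 CPM) and Serping1 (1343 to 355 CPM), the C1 inhibitor, and 1 was higher, the protease Masp1 (2.06 to 8.65 CPM).

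Interferon acts through an element of 2 TTTC repeats, the interferon-stimulated response element (ISRE). The stretches before Isg15 and Ifit3 are shown with TTTC pairs set 2 bases apart, or GAAA where they lie on the opposite strand, in capitals. In Isg15 the matches overlap.
Isg15, chr4:156200819-156201018, minus strand: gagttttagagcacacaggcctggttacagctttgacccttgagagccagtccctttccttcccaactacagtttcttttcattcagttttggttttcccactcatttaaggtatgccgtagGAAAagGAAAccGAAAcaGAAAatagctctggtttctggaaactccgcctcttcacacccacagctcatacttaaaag
Ifit3, chr19:34583329-34583528, plus strand: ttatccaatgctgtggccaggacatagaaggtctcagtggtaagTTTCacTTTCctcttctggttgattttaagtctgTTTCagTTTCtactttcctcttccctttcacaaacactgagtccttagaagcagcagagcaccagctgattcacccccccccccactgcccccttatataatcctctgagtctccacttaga
TTTC, 2 free bases and TTTC, on either strand, stood before 7 of the 15 interferon-stimulated genes with a window (46.7%), before 2.30% of compared genes and in 2.27% of all 32851 windows. Isg15, a ubiquitin-like protein, had 107 CPM at d0 and 13.2 at d3, and Ifit3, an RNA-binding antiviral protein, had 10.2 and 1.37 CPM. In thinned cells Isg15 was detected in 13.8% at d0 and 2.55% at d3, and in pericyte-marked cells in 35.2% and 24.3%. In cells that were neither dividing nor marked as another type, the median log2 ratio of the 18 genes was -2.07 and that of Isg15 was -2.05.

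Most immediate early genes, which switch on within minutes of a stimulus, had higher CPM in the uninjured library. So did the heat shock genes Hspa1a and Hspa1b. Of 24 immediate early genes, 16 were called lower at d3 and 0 higher (median log2 ratio -1.75 on CPM and -1.10 on the median of ratios). Fos had 4885 CPM at d0 and 1035 at d3, Atf3 1098 and 149.6 CPM, and Klf2 314 and 48.1 CPM. Per cell, Fos had 18.4 UMIs at d0 and 18.5 at d3. Of 20 cytosolic chaperones, 4 were lower and 2 higher, against 14.5% and 11.5% of all compared genes. The list's median differed in direction between scales (-0.36 on CPM and 0.29 on the median of ratios). On CPM it was close to the median of all compared genes (-0.32). The stress-induced pair Hspa1a (4830.5 to 575 CPM) and Hspa1b (913 to 65.5 CPM), near-identical copies whose reads are hard to separate, was lower. Subunits of the chaperonin that folds actin and tubulin, Tcp1 (113 to 266 CPM) and Cct2 (102 to 224 CPM), were higher. The constitutive Hspa8 was not called (5101 to 3311 CPM). Metallothionein and iron-handling genes followed with 5 of 17 lower, including Mt1, Mt3 (26.9 to 0.480 CPM) and Trf, transferrin (74.0 to 5.31 CPM), and 1 higher, the extracellular superoxide dismutase Sod3 (102 to 377 CPM). Whether handling of the tissue differed between the libraries was not tested.

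Signalling genes were called in both directions, and so were all compared genes, with 11.5% higher and 14.5% lower. In the WNT list, 3 of 18 compared genes were called higher, the secreted inhibitors Sfrp2 (22.1 to 329 CPM) and Sfrp1 (14.0 to 165 CPM) and the agonist Rspo3 (3.21 to 22.9 CPM). Another 6 were lower, among them Wif1, another secreted inhibitor (91.0 to 2.09 CPM), and the ligand Wnt10b (10.7 to 0.210 CPM). In the BMP list, Inhba, encoding the activin A subunit, was the only 1 of 23 called higher (60.6 to 538 CPM, log2 ratio 3.15). Another 10 were lower, including the ligands Bmp7 (13.0 to 0.140 CPM) and Bmp4 (93.02 to 5.11 CPM). The BMP response genes Id1 (69.3 to 13.7 CPM), Id2 (243 to 29.1 CPM) and Id3 (1258 to 302 CPM) were among these 10. The follistatin-like protein Fstl1 was not called (956 to 1000.5 CPM). In the TGF-beta list, Ltbp2 and Lrrc17 (16.2 to 143 CPM) were higher and 4 of 19 were lower, among them Lrrc32 (95.8 to 14.2 CPM), which presents latent TGF-beta at the cell surface, and Tgfbi was not called (228 to 274 CPM).

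Of 27 compared growth factor ligands and receptors, 4 were higher and 7 lower, against 11.5% and 14.5% of all compared genes. Ereg, the EGF receptor ligand epiregulin, had 1.03 CPM at d0 and 18.3 at d3, Vegfd had 7.11 and 42.9 CPM and Pdgfc 11.4 and 23.4 CPM. Igfbp6, an IGF2-binding protein, had 3318 and 123 CPM and was detected in 81.7% and 19.1% of thinned cells, and Fgf1 had 32.9 and 0.490 CPM. Hedgehog and Notch genes were called lower for 10 of 15 and higher for 0 (median log2 ratio -1.91 on CPM and -1.26 on the median of ratios). They included the Notch feedback gene Nrarp (41.1 to 0.430 CPM), the Notch target Hes1 (301 to 21.4 CPM) and the hedgehog-binding protein Hhip (21.0 to 0.570 CPM). At d0 Nrarp was detected in 24.4% of pericyte-marked cells and 0.368% of cells with no mark of another type.

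Genes of progenitor identity were lower. Of 24 compared surface and secreted genes of muscle mesenchymal progenitors, 16 were called lower and 1 higher (median log2 ratio -3.03 on CPM and -2.39 on the median of ratios). Cd34 had 689 CPM at d0 and 47.3 at d3 (log2 ratio -3.86, interval -3.91 to -3.82), in 55.9% and 9.96% of thinned cells. Smpd3, a sphingomyelinase, had 28.7 and 0.110 CPM, and Vcam1, an adhesion molecule for leukocytes, was the higher member (38.3 to 84.2 CPM). The 5 FAP/MP markers did not move as a unit. Pdgfra (158 to 46.7 CPM) and Cd34 were called lower, Ly6a (979 to 427 CPM) was below d0 on both scales without passing 2-fold on both, and the directions of Prrx1 (134 to 124 CPM) and Cxcl12 (371 to 288 CPM) differed between scales. At least 2 of the 5 markers were found in 64.3% of thinned d0 cells and 37.8% of d3 cells. At this depth the panel that marks the labelled progenitors thus covered under 50% of d3 cells. EGFP was detected in 99.2% of retained d3 cells, but this share used all their UMIs and needed only 1 UMI. The panel and EGFP shares are therefore not on the same measure.

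Among 33 mesenchymal transcription factors, 11 were lower and 1 was higher, Runx2 (7.91 to 37.4 CPM), which directs osteoblast formation and chondrocyte maturation. The lower ones included Meox1 (66.2 to 3.92 CPM), Sox6 (12.6 to 0.730 CPM) and Klf4 (938 to 187 CPM). Chondrogenic genes were called lower for 6 of 9 and higher for 1: Acan, aggrecan, had 4.01 and 30.8 CPM, while Chad, chondroadherin of tendon and cartilage, had 356 and 5.95 CPM. The median log2 ratio of the chondrogenic list was -2.11 over all cells and -0.80 in cells neither dividing nor marked as another type. That of the 6 tenocyte markers was -2.84 and -0.24. Cells with at least 2 of these markers had been left out, so the value of -0.24 depends on that choice of cells. Within tenocyte-marked cells, chosen by the same markers, the log2 ratios of the 6 ran from -4.13 (Kera) to -1.09 (Thbs4). Sox9, the chondrocyte regulator, was not called (66.7 to 90.6 CPM), and Cilp had 250.4 and 128 CPM. Of 6 compared osteogenic genes, Runx2 and Spp1 were higher, Col1a1 was not called, and Alpl (22.7 to 3.16 CPM), Bglap (28.6 to 0.110 CPM) and Bglap2 were lower. Hox genes, which record position along the limb, were called lower for 1 of 6, against 14.5% of all compared genes. This was Hoxa10 (33.8 to 6.74 CPM), and Hoxc10 had 36.8 and 17.5 CPM.

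The makeup of the libraries differed along with the sums above, and its part in any single ratio was tested only by leaving cells out. Pericyte-marked cells, with at least 2 of 8 markers among 2000 UMIs, were 19.2% (745 of 3888 cells, interval 17.9 to 20.4%) at d0 and 2.07% (111 of 5364 cells, interval 1.71 to 2.49%) at d3. The markers include Myh11, the smooth muscle myosin heavy chain, so they do not separate pericytes from smooth muscle cells. Marker levels within the marked cells differed between the libraries, as given below, so the shares may not follow the same type of cell. Of the 8 markers 7 were compared and 6 called lower, and the list's median log2 ratio was -4.07. The d3 pericyte-marked cells had a median of 4997 UMIs, close to the 4425 of d0 pericyte-marked cells. It was far under the 17067 of d3 cells neither dividing nor marked as another type. Tenocyte-marked cells were 11.2% and 7.42%. Other types were rare: hematopoietic-marked cells were 0.154% and 0.429%, endothelial-marked cells 8 at d0 and 0 at d3, Schwann-marked cells 7 and 0, and myogenic-marked cells 0 in both, where the floor of 3 counts allows up to 0.0772% of d0 and 0.0559% of d3 cells and the exact intervals reach 0.0948% and 0.0687%. Perineurial-marked cells were 31 (0.797%) at d0 and 11 (0.205%) at d3, and myofibre-marked cells 16 (0.412%) and 3 (0.0559%). These marks were not used to leave cells out, so cells described as not marked as another type may include them. The red blood cell markers summed to 303 CPM at d0 and 40.1 CPM at d3. They were Alas2 and the near-identical hemoglobin pairs, Hba-a1 with Hba-a2 and Hbb-bs with Hbb-bt.

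Contractile genes differed by the cells that were summed. Over all cells, 8 of 13 smooth muscle contractile genes were called lower and 1 higher, Cnn2 (66.9 to 223 CPM), with a median log2 ratio of -2.81. Acta2 (ENSMUSG00000035783, chromosome 19, 34241090 to 34255590, minus strand), encoding smooth muscle actin, had 2411 CPM at d0 and 774 at d3 (log2 ratio -1.64, interval -1.66 to -1.62) and was not called. In the cells that were neither dividing nor marked as another type, 2721 at d0 and 2969 at d3, it had 112 CPM at d0 and 708 CPM at d3, 6.30-fold higher (log2 ratio 2.66, interval 2.57 to 2.74). Its thinned share in these cells was 18.7% at d0 and 46.5% at d3. Other classes gave other ratios, and a cell could carry the marks of more than 1 of them. Acta2 had 396 and 628 CPM in FAP/MP-marked cells, 1083 and 597 CPM in tenocyte-marked cells, 2061 and 776 CPM in dividing cells, of which d0 had 10, and 11836 and 6942 CPM in pericyte-marked cells. The pericyte-marked cells differed in marker levels between the libraries. Among their own markers Rgs5 had 243 and 2437 CPM and Kcnj8 5.67 and 182 CPM. Myh11 had 2506 and 474 CPM there and Mylk 2359 and 691 CPM. Whether the mix of these cells or the levels within them changed was not tested.

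Of the 10 compared contractile genes not used to mark a cell type, looked up after the turn in Acta2 was seen, 8 were above and 2 below their d0 CPM in these remaining cells, with a median log2 ratio of 1.46 against -2.22 over all cells. The pericyte-marked cells left out were 745 at d0 and 111 at d3, with Acta2 at 11836 and 6942 CPM. The difference between these medians therefore depends on that choice of cells. In the remaining cells Tagln, transgelin, had 41.9 CPM at d0 and 126 at d3, where its log2 ratio over all cells was -3.15. Tpm2, a tropomyosin, had 84.3 and 460.2 CPM against -1.17 over all cells, and Tpm1 had 74.2 and 533 CPM against -0.09 on CPM and 0.56 on the median of ratios over all cells. Myl9, a regulatory myosin light chain, had 107 and 178 CPM against -2.90. The 2 below d0 were Lmod1, which nucleates actin filaments in smooth muscle, with 2.66 and 0.198 CPM, and Synpo2, with 4.77 and 0.296 CPM. In FAP/MP-marked cells Tagln (180.1 and 97.5 CPM), Myl9 (253 and 157 CPM) and Cnn1 (15.8 and 10.4 CPM) were below d0, and Tpm1 (136 and 518 CPM) and Tpm2 (215 and 404 CPM) were above it. The general actin cytoskeleton list, with 7 of 30 higher and 0 lower, led by Pfn1 (528 to 1845 CPM) and Actg1, and with S100a6 not called (5436 to 5182 CPM), did not hold the smooth muscle genes.

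**Figure D5:**
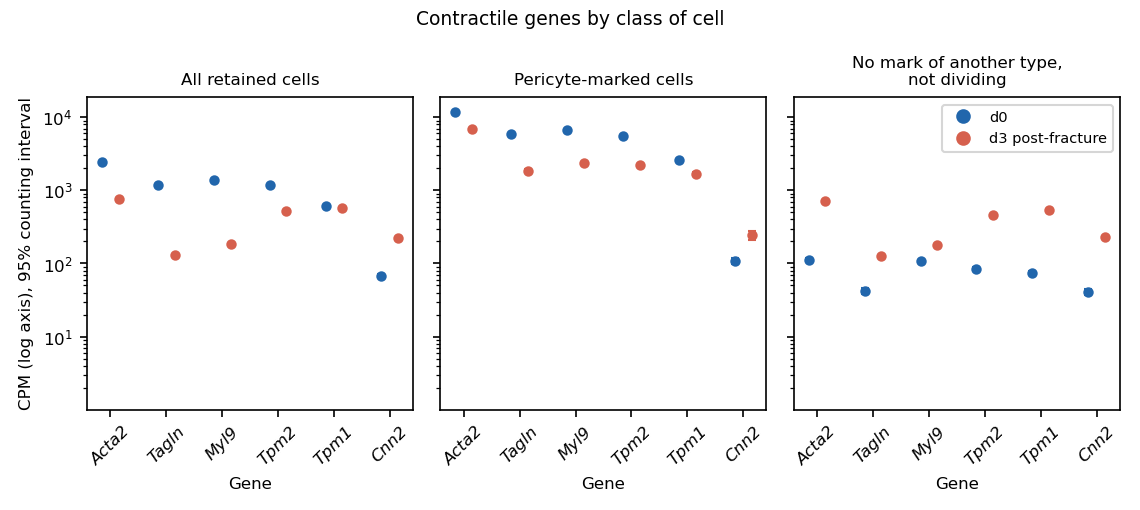
CPM (log axis) of 6 contractile genes at d0 (blue) and d3 post-fracture (red) in all retained cells (left), in pericyte-marked cells (middle, 745 and 111 cells) and in cells that were neither dividing nor marked as another type (right, 2721 and 2969 cells), with exact 95% counting intervals, mostly smaller than the points. The CPM of Acta2 is lower at d3 in the left panel, where it was not called, and in the middle panel, and higher in the right panel. The pericyte-marked cells differed in marker levels, with Rgs5 at 243 CPM in d0 and 2437 CPM in d3 cells.

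With dividing cells and cells marked as another type both left out, 907 genes were higher and 1165 lower, of which 785 and 975 were among the 1052 and 1328 called over all cells. Of 241 genes called over all cells and named by the rule or in the text, 200 kept their call. The call was lost below 2-fold for 9 higher genes (Adrm1, Cct2, Mest, Pdgfc, Rars, Rbp4, Tcp1, Vcan and Vim) and for 13 lower genes, among them Il6, Mt1, Ccnd2, Ldhb, Lrrc32, Fmod, Myl9, mt-Nd2, mt-Nd3 and mt-Nd4. Tagln turned from lower to higher, and 18 others fell under the minimum level of 5 CPM in these cells. The latter were Aurkb, Cilp2, Cox4i2, Cox7a1, Hba-a1, Hba-a2, Hbb-bs, Hbb-bt, Itga8, Kera, Lama5, Lmod1, Mt3, Nrarp, Sox6, Synpo2, Timp4 and Wif1. In these cells the log2 ratio of Gsn was -6.60, of Timp1 5.39, of Cthrc1 5.46, of Cd34 -4.24, of Ccl11 -5.62 and of Dcn -3.42, each in the direction found over all cells. Tnc stood further apart there, with a log2 ratio of 5.82 against 3.04 over all cells. The median ratio of the G2 and mitosis genes was 3.87 in these cells, although cells with at least 2 of the genes in 2000 UMIs had been removed, and that of the S phase genes was 2.09. The score at 2000 UMIs marked 37.1% of thinned d3 cells, against 66.2% of retained d3 cells with all UMIs. The d3 cells left may therefore still hold dividing cells.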

How the data were processed

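The d0 and d3 post-fracture libraries were analysed from the UMI counts per gene and cell that the authors deposited, made with Cell Ranger (3.1.0 in the matrix header, where the study's methods name a later version) and aligned to mm10. The submitters' notes also name Seurat 3.1.2. These counts were raw, with no normalization, and filtered to cell barcodes. Cells were kept by the limits given above, UMIs were summed per library, and genes with a mean of at least 5 CPM were compared. No count model was run, since each group had 1 library. Folds against 0 UMIs used a floor of 3 counts. Shares of cells were taken after thinning each cell to 2000 UMIs, which left out 744 d0 and 225 d3 cells with fewer. Intervals were exact Poisson or Clopper-Pearson.

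Named genes were the 15 largest rises and falls with a mean of at least 20 CPM, the 10 largest gains and losses in CPM, and from each gene list the most counted member, the 2 called members at each end and all members of short lists. Some genes that this rule selects are not reported here. Other genes named were chosen after their values were seen. The lists and the comparison were chosen with earlier results of these data known. Scripts were tested on simulated data. No column of the files was set aside as another sample's (0). Python 3.11.15, numpy 2.4.6, pandas 2.3.3, scipy 1.17.1, scanpy 1.11.5 (doublet scores) and matplotlib 3.10.9 were used. Motif searches used RefSeq promoter windows, which held 21 of 25 G2 and mitosis genes.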

Additional observations from a re-analysis of the deposited data

How the results depend on the processing

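No paired analysis was possible because each condition has 1 library, and leaving out a replicate was not possible for the same reason. The count of higher genes, 1052, became 2415 on the median of ratios alone, 1652 with the totals taken without ribosomal protein and mt- genes, 1859 with no minimum level of a gene and 682 at a mean of at least 20 CPM. The count of lower genes, 1328, became 2504 on CPM alone, 4502 with no minimum level and 616 at a mean of at least 20 CPM, since these settings change which genes enter or which scale decides. Under the other planned settings the counts lay between 916 and 1055 for higher genes and between 1226 and 1480 for lower genes. Chosen after seeing the data, a median of ratios over the compared genes alone gave 1052 and 1812. The share of dividing cells at d0, 0.257%, was 1.53% with 5000 UMIs drawn and 0.604% with all UMIs, and that at d3, 37.1%, was 54.0%, 66.2% and, with at least 3 genes, 25.2%. Shares with 5000 UMIs drawn cover only cells with at least 5000 UMIs, where the median cell had 3640 UMIs at d0 and 17963 at d3. Those with all UMIs cover every retained cell. Of 241 named genes called over all cells, 200 kept their call without cells marked as other types and 230 without dividing cells. Under 13 alternatives the 3119 values of these genes held 4 of opposite direction: without cells of other types Tagln went to a log2 ratio of 1.41 and Myl9 to 0.65, and with dividing cells left out as well, a setting chosen after seeing the data, to 1.58 and 0.74. Of the named genes that were not called, 21 changed sign under at least 1 alternative on CPM, among them Acta2, from -1.64 to 2.69 without cells of other types. Of all 4068 values, 1902 moved beyond their counting interval. The automatic doublet calls of Scrublet marked 4 d0 and 2 d3 cells (0.0864% and 0.0358%), too few to be taken as working, so the highest-scoring 172 (3.71%) and 250 (4.47%) cells were left out instead, which gave 1046 higher and 1331 lower genes. Depth per cell also bears on the calls. With cells thinned to 2000 UMIs, 931 of the 1052 higher and 1230 of the 1328 lower genes kept their call. Of the 241 named genes called, 232 did. With 1 library per condition, the spread between animals is unknown.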

Other observations

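Gene groups not described above are read here against the 11.5% of compared genes called higher and the 14.5% called lower. Of 17 compared genes of retinoid and steroid handling, 3 were called higher and 6 lower (median log2 ratio -1.20 on CPM and -0.55 on the median of ratios). The higher ones included Crabp2 (18.8 to 65.7 CPM) and Rbp4 (29.2 to 64.6 CPM), which bind retinoids. The lower ones included Adh1 (50.8 to 14.3 CPM) and Aldh1a1 (59.7 to 4.47 CPM), enzymes that oxidise retinol and retinal, Hsd11b1 (143 to 9.01 CPM), which regenerates active glucocorticoid, and the glucocorticoid receptor Nr3c1 (97.95 to 24.8 CPM) with its target Tsc22d3 (290.3 to 21.2 CPM). Of 23 compared genes of adipogenesis and lipid handling, 2 were higher, Fabp5 and Angptl4 (33.0 to 396 CPM), an inhibitor of lipoprotein lipase, and 10 were lower. The latter held all 3 compared C/EBP factors, Cebpa (11.8 to 2.58 CPM), Cebpb (229.9 to 22.5 CPM) and Cebpd (250.1 to 24.5 CPM), together with Lpl (371 to 24.7 CPM), Apoe (243 to 23.5 CPM) and Apod (1346 to 68.6 CPM).

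Of 13 compared imprinted growth genes, 2 were higher, H19 (74.3 to 382 CPM) and Mest (40.3 to 82.7 CPM), and 4 lower, Dlk1 (17.5 to 2.40 CPM), Cdkn1c, Sgce (111 to 25.7 CPM) and Dcn. Of 20 genes of cholesterol synthesis, 1 was higher, Ebp (53.0 to 120.4 CPM), and 5 lower, among them Insig1 (117 to 32.5 CPM). Of 20 lysosomal genes, the proteases Ctsc (5.10 to 22.6 CPM) and Lgmn (28.7 to 127 CPM) were higher and 4 were lower, led by Ctsf (64.6 to 5.53 CPM). Of 13 compared targets of NRF2, the oxidant-sensing factor, Gsr (8.72 to 31.5 CPM) was higher and Hmox1 (473 to 89.7 CPM), Gclc (56.4 to 15.8 CPM) and Osgin1 (23.8 to 1.38 CPM) were lower. Of 8 compared YAP targets, 0 were higher and 2 lower, Crim1 (42.3 to 6.66 CPM) and Axl (291 to 34.4 CPM).

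In windows of 200 bases before a gene's start, the hypoxia response letters ACGTG stood, on either strand, in 11 of 19 compared glycolysis genes (57.9%), in 22.9% of compared genes with a window and in 14.0% of all windows. The cyclic AMP response letters, TGAC followed by its reverse complement, stood in 2 of 19 compared immediate early genes with a window (10.5%), in 3.15% of compared genes with a window and in 1.47% of all windows.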
